A study of Mus musculus with 4 samples.

Results

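The 33 genes described here encode enzymes, regulators and transporters of glycolysis, targets of the cellular response to low oxygen, and the transcription factor Hif1a. They were chosen as a list of names, and all 33 were found among the 31053 genes of the mouse skin series. By role they fall into 14 glycolytic enzymes (Hk1, Hk2, Gpi1, Pfkl, Pfkp, Aldoa, Aldoc, Tpi1, Gapdh, Pgk1, Pgam1, Eno1, Pkm and Ldha), 3 regulators (Pfkfb3, Pfkfb4 and Pdk1), 3 transporters (Slc2a1, Slc2a3 and Slc16a3), 12 hypoxia targets outside glycolysis (Adm, Vegfa, Bnip3, Ndrg1, Egln1, Egln3, Car9, P4ha1, P4ha2, Hilpda, Mgarp and Ndufa4l2) and Hif1a itself.

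The series holds 4 single-cell 3' RNA libraries from back skin of BALB/c mice, with 1 library in each group. In the DMBA/TPA WT and DMBA/TPA Cd226-/- groups the skin received 25 µg of the carcinogen DMBA once and, 1 week later, the tumour promoter TPA at 5 µg a week for 3 weeks, and cells of 3 pooled mice were taken 3 weeks after treatment as a 1:1 mixture of sorted CD45+ and CD45- cells. The naive CD45+ and naive CD45- libraries came from untreated skin, and each pools WT and Cd226-/- cells, so the naive level cannot be split by genotype. Cd226 encodes an activating receptor of lymphocytes; how the allele was made, and the mice's age and sex, the labels do not say. All skin was digested with collagenase. With 1 library in each group the design has no replicate, so no comparison below has a test, treatment and genotype cannot be told apart from library, and every interval covers counting error only.

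Glycolysis splits glucose into pyruvate, and lactate dehydrogenase turns pyruvate into lactate while restoring the cofactor that keeps the pathway running. Hif1a is destroyed in oxygenated cells after prolyl hydroxylases, such as those encoded by Egln1 and Egln3, mark it; when oxygen is scarce it persists and binds short DNA sites with the letters ACGTG or GCGTG near genes of glycolysis, glucose uptake, angiogenesis and matrix synthesis. Because that control acts on the protein, Hif1a RNA is not a measure of its activity, and several glycolytic genes also answer to growth and inflammatory signals. Skin lies near the air but is poorly oxygenated in part, and its fibroblasts, keratinocytes and infiltrating immune cells differ in how much of their energy comes from glycolysis.

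The promoters of 4 members with the letters ACGTG and of Adm, the member with the greatest difference in fibroblast-like cells, are shown so that the motif can be seen beside the values that follow. Each run is the 250 bases before 1 annotated start in RefSeq's table for GRCm38.p6, 5' to 3' on the plus strand. Capitals mark ACGTG or its reverse complement CACGT, which share 4 letters in CACGTG and are then written as 1 run. Ldha is given at chr7:46845554-46845803, Pgk1 at chrX:106186850-106187099, Hilpda at chr6:29272376-29272625, P4ha2 at chr11:54100674-54100923 and Adm at chr7:110627407-110627656.
Ldha: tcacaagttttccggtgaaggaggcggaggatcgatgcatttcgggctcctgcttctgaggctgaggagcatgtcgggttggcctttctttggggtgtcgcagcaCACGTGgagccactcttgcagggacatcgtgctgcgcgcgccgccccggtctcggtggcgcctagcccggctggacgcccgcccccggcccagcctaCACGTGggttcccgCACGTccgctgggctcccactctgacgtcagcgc
Pgk1: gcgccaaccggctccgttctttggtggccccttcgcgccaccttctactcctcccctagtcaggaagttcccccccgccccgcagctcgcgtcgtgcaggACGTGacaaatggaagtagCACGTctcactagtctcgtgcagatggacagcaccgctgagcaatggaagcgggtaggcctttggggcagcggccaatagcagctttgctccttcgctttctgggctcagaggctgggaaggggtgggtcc
Hilpda: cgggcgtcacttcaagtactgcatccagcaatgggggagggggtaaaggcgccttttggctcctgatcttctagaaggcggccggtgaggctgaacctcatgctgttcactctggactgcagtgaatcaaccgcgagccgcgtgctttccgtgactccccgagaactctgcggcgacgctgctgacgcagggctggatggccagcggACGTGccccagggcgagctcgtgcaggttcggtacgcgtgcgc
P4ha2: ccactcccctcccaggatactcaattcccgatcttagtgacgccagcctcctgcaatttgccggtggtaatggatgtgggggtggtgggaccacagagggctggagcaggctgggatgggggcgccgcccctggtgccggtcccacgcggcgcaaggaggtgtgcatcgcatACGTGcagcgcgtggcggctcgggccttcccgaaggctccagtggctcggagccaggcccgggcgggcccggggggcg
Adm: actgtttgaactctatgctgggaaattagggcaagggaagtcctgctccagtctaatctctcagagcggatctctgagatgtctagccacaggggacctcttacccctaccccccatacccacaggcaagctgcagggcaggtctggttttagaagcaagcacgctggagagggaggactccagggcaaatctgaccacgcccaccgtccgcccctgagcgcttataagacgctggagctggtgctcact
These windows held 5 matches for Ldha, 2 for Pgk1, 1 for Hilpda, 1 for P4ha2 and 0 for Adm, whose window held 2 matches to the related letters GCGTG on either strand. Ldha and Hilpda each had another annotated start, and the window with matches is the one shown. Their other windows, at chr7:46846832-46847081 and chr6:29272238-29272487, held 0 matches to ACGTG.

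Of the 33 genes, 30 had at least 1 window in that table, 42 windows in all. ACGTG on either strand was present in 21 of the 42 windows (50%), against 16.6% of all 32851 windows of the same length. Counted by gene, 9 of 10 hypoxia targets (90%) and 6 of 14 enzymes (42.9%) had at least 1 window with it, against 18.5% of all genes. With GCGTG allowed as well, the shares were 81.0% of the members' windows and 38.6% of all windows. Such matches describe letters in these windows and are not binding sites; Slc2a3, Ndrg1 and Ndufa4l2 had no window.

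The deposited matrices held 81406730 gene UMIs in the naive CD45- library, 42043869 in naive CD45+, 72606822 in DMBA/TPA WT and 71245703 in DMBA/TPA Cd226-/-. After filtering, 10598, 3335, 7042 and 6521 cells remained, with median depths between 6555.5 and 9070 UMIs; pairs of libraries shared 9 to 21 cell barcodes, at most 0.355% of the smaller one. In the lymphocyte-like cells Cd226 itself stood at 4.86 CPM (UMIs per 1000000 gene UMIs) in naive CD45+, 49.3 in WT and 14.6 (95% interval 10.5 to 19.7) in Cd226-/-; since the deleted part of the gene is not given, these 3' tags do not check the genotype. Immune cells made up 27.2% of kept WT cells and 50.01% of kept Cd226-/- cells, so levels are compared only within a class. A class is a group of clusters named from its marker genes and called "-like"; members and pathway genes were kept out of the genes that made the clusters. A class was compared between libraries only with 100 or more cells in both, immune classes against naive CD45+ and the others against naive CD45-. A gene entered the medians and counts below with 50 or more UMIs over both libraries, and "past 1.5-fold" means a CPM ratio of at least 1.5 in either direction.

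Across the compared classes, the median of the glycolytic enzymes was above that of all genes in each comparison with naive skin. The median of the hypoxia targets was above that of all genes in the compared immune classes and below it in fibroblast-like cells and in endothelial-like cells, where alternatives given with that class turned it above 0. Within neutrophil-like cells of Cd226-/- the targets were split, with 3 of 6 higher than naive. The median log2 ratio of the enzymes, WT against naive, was 0.71 in fibroblast-like cells, 0.63 in lymphocyte-like cells, 0.55 in neutrophil-like cells, 0.44 in endothelial-like cells, 0.35 in monocyte-like cells and 0.30 in macrophage-like cells, against all-gene medians between -0.33 and 0.18 in the same classes. For the hypoxia targets the corresponding medians were 0.12 (-0.09 with trimmed-mean scaling), 1.62, 0.65, -0.30, 0.62 and 0.30. The Cd226-/- library, read against the same naive libraries and therefore not independent of the WT comparison, gave enzyme medians of 0.95 in fibroblast-like, 0.79 in lymphocyte-like, 0.57 in macrophage-like, 0.37 in neutrophil-like, 0.33 in monocyte-like and 0.31 in dendritic-like cells; the target medians were -0.02, 1.60, 0.58, 0.10, 0.40 and 0.26. The neutrophil-like value was -0.0671 at 5% mitochondrial UMIs, and the dendritic-like value -0.0238 with members kept among the variable genes. Genes of oxidative phosphorylation and the citrate cycle lay nearer to the all-gene median than the enzymes did. In dendritic-like cells of Cd226-/- the margin was small, at 0.29 against 0.31. In fibroblast-like cells their medians were 0.28 (WT) and 0.42 (Cd226-/-), with 23 and 24 of 26 genes higher than naive. The targets of fibroblast-like cells lay nearer to all genes than these did. Scaling by a trimmed mean of ratios shifted all log2 ratios of fibroblast-like cells against naive by -0.21, which left the enzyme medians at 0.50 (WT) and 0.73 (Cd226-/-); shifts over 0.1 elsewhere were 0.11 in WT lymphocyte-like cells and, in neutrophil-like cells, 0.13 for Cd226-/- against naive and 0.14 against WT.

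**Figure D1:**
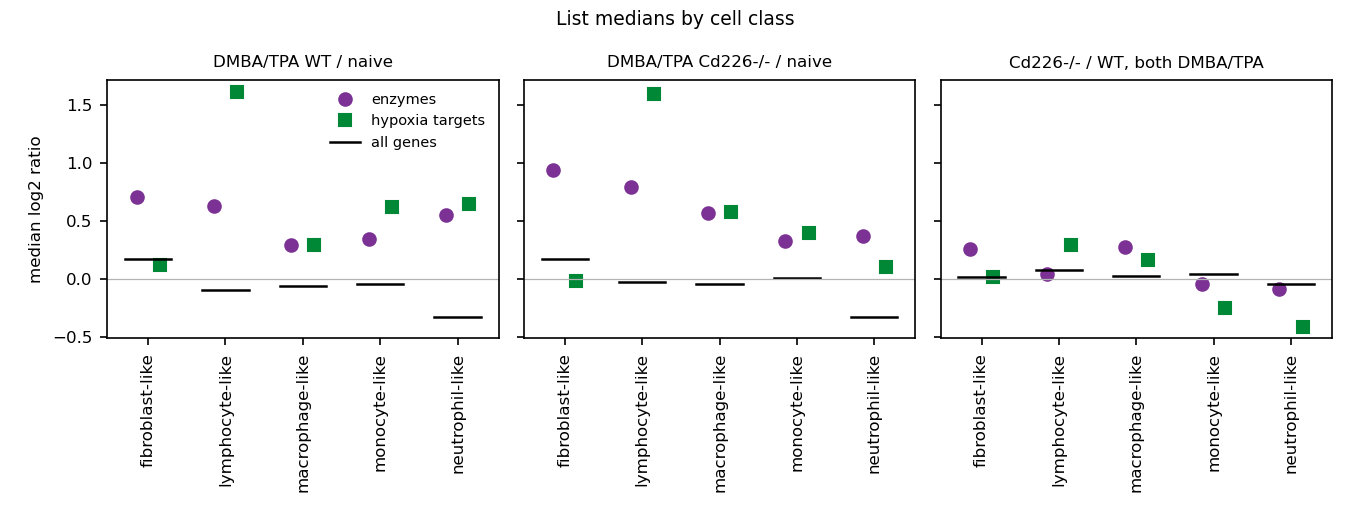
Median log2 CPM ratio of the glycolytic enzymes, the hypoxia targets and all genes with 50 or more UMIs in each of the 3 comparisons. The classes drawn are fibroblast-, lymphocyte-, macrophage-, monocyte- and neutrophil-like cells. Each group is 1 library, so the points carry no error bars. The enzymes lie above all genes in each drawn class compared with naive skin. The targets reach 1.62 in WT lymphocyte-like cells against naive and -0.41 in neutrophil-like cells of Cd226-/- against WT.

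Fibroblast-like cells were the most numerous class, with 10163 cells in naive CD45-, 4047 in WT and 2749 in Cd226-/-. All 13 enzymes with enough UMIs stood higher than naive in both treated libraries, except that trimmed-mean scaling turned Hk1 to log2 ratios of -0.15 and -0.11. In WT 9 of the 13 were past 1.5-fold higher, where 19.7% of all 12770 genes were, and in Cd226-/- 12 of 13 were, where 23.6% of all genes were. Ldha, which makes lactate from pyruvate, had the greatest ratio of the enzymes: 107 CPM in naive, 383 in WT and 538 in Cd226-/-, or 3.59-fold (95% interval 3.50 to 3.69) and 5.04-fold (4.91 to 5.18) higher than naive. Its level was lowest in naive and highest in Cd226-/-, with no overlap of counting intervals.

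The enzymes of the payoff phase, which yield ATP, followed the same order in fibroblast-like cells. Pgk1, phosphoglycerate kinase, measured 58.3 CPM in naive, 127 in WT (2.17-fold, 2.09 to 2.26) and 132 in Cd226-/- (2.26-fold, 2.17 to 2.36). Eno1, an enolase, measured 47.2, 90.1 and 108 CPM, and Gapdh, which makes the first high-energy phosphate of the pathway, 268, 444 and 563 CPM. Pkm, pyruvate kinase, stood at 145, 184 and 250 CPM, and Pgam1, which moves the phosphate of phosphoglycerate, at 130, 172 and 220 CPM. In each of these the naive library was the lowest and Cd226-/- the highest.

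Among the enzymes of the preparatory phase, Hk2, an inducible hexokinase, measured 68.9 CPM in naive, 142 in WT (2.06-fold, 1.98 to 2.14) and 172 in Cd226-/- (2.50-fold, 2.41 to 2.59). Hk1, the hexokinase found in most tissues, was near level at 19.3, 20.2 and 20.7 CPM, with both intervals against naive including equality. Gpi1, which turns glucose phosphate into fructose phosphate, stood at 64.0 CPM in naive and 123 in both treated libraries. The 2 hexokinases, which catalyse the same first step, thus differed in ratio. The phosphofructokinase subunits Pfkp (48.0, 74.9 and 89.4 CPM) and Pfkl (6.37, 10.5 and 11.6 CPM) were higher in both treated libraries, as were triose phosphate isomerase Tpi1 (80.5, 132 and 159 CPM) and aldolase Aldoa (209, 281 and 318 CPM). The aldolase Aldoc had too few UMIs in this class to compare.

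Regulators and transporters did not share 1 direction in fibroblast-like cells. Pfkfb3, whose product makes the activator of phosphofructokinase, was low but higher after treatment, at 2.09 CPM in naive, 3.59 in WT and 8.74 in Cd226-/- (4.19-fold over naive, 3.44 to 5.12). Its relative Pfkfb4 was lower, at 10.9, 5.80 and 4.49 CPM (1.88-fold and 2.43-fold lower). Pdk1, the kinase that keeps pyruvate out of the mitochondria, was lower as well, at 6.51, 2.04 and 2.08 CPM (3.20-fold, 2.55 to 4.04, and 3.13-fold, 2.45 to 4.03, lower). The direction of Pdk1 was thus opposite to that of Ldha, which turns pyruvate to lactate. The glucose transporters Slc2a1 (4.43, 5.98 and 8.25 CPM) and Slc2a3 (0.606, 1.22 and 1.98 CPM) were higher in both treated libraries, and the lactate exporter Slc16a3 differed little (5.30, 5.03 and 5.01 CPM, intervals including equality).

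**Figure D2:**
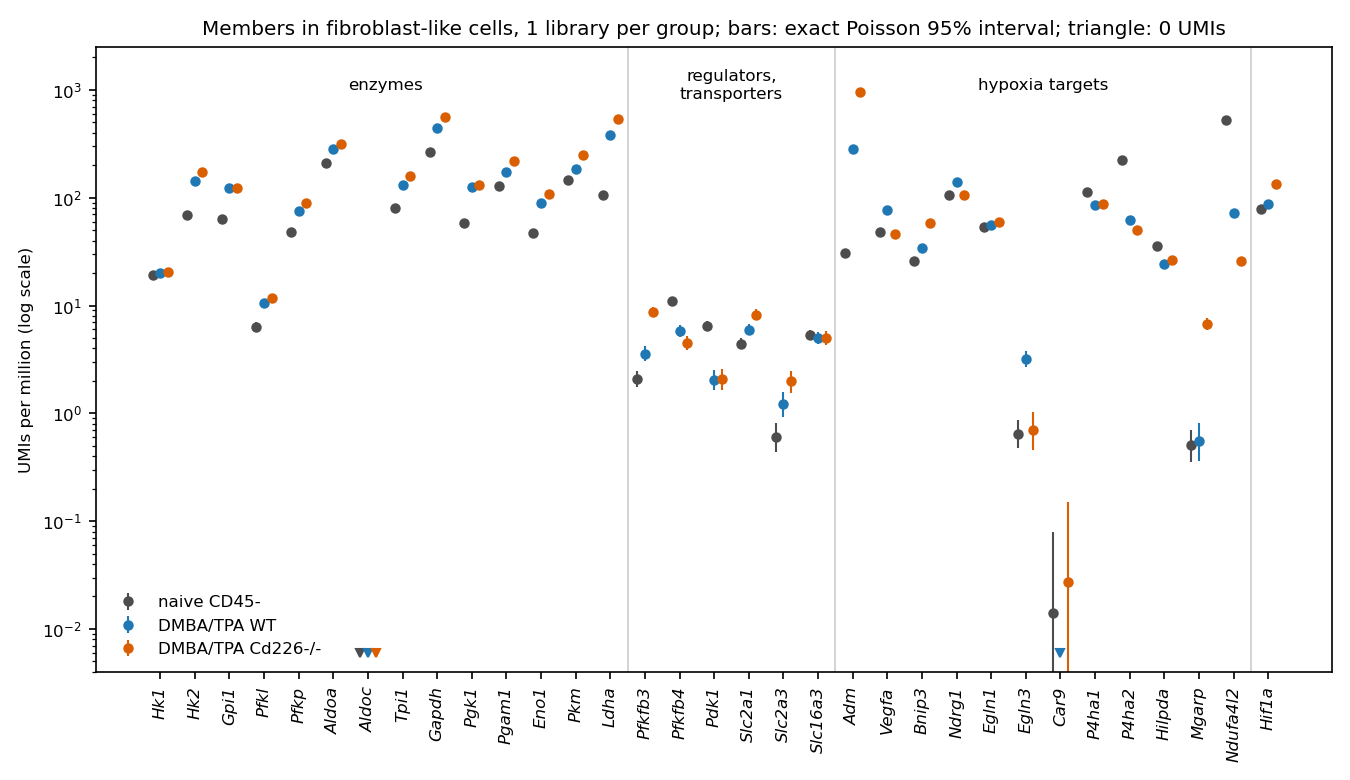
Level of each of the 33 genes in fibroblast-like cells of the naive CD45-, DMBA/TPA WT and DMBA/TPA Cd226-/- libraries, in CPM on a log axis, with exact Poisson 95% intervals and triangles where a library had 0 UMIs. Ldha and Adm run from naive through WT to Cd226-/- in ascending order of level, Ndufa4l2 and P4ha2 in the opposite order.

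The hypoxia targets of fibroblast-like cells spread over both directions. Of 11 with enough UMIs, 7 stood higher than naive in WT and 5 in Cd226-/-; in each library 3 were past 1.5-fold higher and 2 past 1.5-fold lower, where 12.2% of all genes in WT and 14.9% in Cd226-/- were past 1.5-fold lower. Adm, the precursor of the vessel-dilating peptide adrenomedullin, had the greatest ratio of all members: 30.6 CPM in naive (29.4 to 31.9), 282 in WT (277 to 287) and 962 in Cd226-/- (952 to 972), or 9.21-fold (8.80 to 9.64) and 31.4-fold (30.1 to 32.8) above naive. Thinned to 1000 UMIs a cell, 2.78%, 15.5% and 45.2% of fibroblast-like cells had an Adm UMI (unthinned 11.5%, 44.8% and 78.0%, at median depths of 6626, 10145 and 12624 UMIs). Macrophage-like cells, taken as a class with little Adm, gave thinned shares of 0.00% in naive CD45+ (0 of 1447 cells, which allows up to 0.207%), 0.935% in WT and 0.536% in Cd226-/-, at median depths of 9213, 4776 and 6080 UMIs. The fibroblast-like shares of WT and Cd226-/- were above that background. The 85 macrophage-like cells of naive CD45- skin had no Adm UMI after thinning, which allows up to 3.53%, so the naive share of 2.78% was not shown to exceed the background of its own library.

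Ndufa4l2, a mitochondrial protein of the hypoxia response, ran the other way. It measured 522 CPM in naive, 72.6 in WT and 26.0 in Cd226-/-, or 7.19-fold (6.94 to 7.45) and 20.1-fold (18.8 to 21.4) lower. P4ha2, a subunit of the prolyl hydroxylase that matures collagen, measured 226, 62.8 and 50.2 CPM (3.60-fold, 3.46 to 3.75, and 4.50-fold, 4.29 to 4.73, lower). Its relative P4ha1 was lower by less, at 114, 86.2 and 87.5 CPM. Both collagen hydroxylase subunits were lower together with the summed fibroblast markers, which include collagens: 172356 CPM in naive, 71769 in WT and 57096 in Cd226-/-. The part of that shift in the result was not tested.

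The other targets of fibroblast-like cells differed between the treated libraries. Vegfa, the main growth factor of vessels, was 48.1 CPM in naive, 76.7 in WT (1.59-fold higher, 1.52 to 1.67) and 45.7 in Cd226-/- (interval against naive including equality). Bnip3, which marks mitochondria for removal, was 26.0, 34.3 and 58.7 CPM, and Ndrg1, a stress-response gene, 107, 140 and 106 CPM. The oxygen sensors behaved unlike each other: Egln1 was near level at 53.9, 55.6 and 59.6 CPM, while Egln3 was 0.649, 3.19 and 0.704 CPM (4.92-fold higher in WT, 3.50 to 7.01). Hilpda, a lipid droplet protein, was lower in both treated libraries, at 36.0, 24.3 and 26.4 CPM. Mgarp, a mitochondrial transport protein, was 0.508 CPM in naive, 0.554 in WT and 6.77 in Cd226-/- (13.3-fold over naive, 9.37 to 19.47), and Car9, a carbonic anhydrase, had at most 1 UMI in each of these 3 libraries. Hif1a RNA was 78.2, 87.8 and 133 CPM, 1.70-fold (1.64 to 1.77) above naive in Cd226-/- and 1.12-fold (1.08 to 1.17) in WT, where trimmed-mean scaling turned the log2 ratio to -0.04.

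Mgarp shows how the naive side bears on a fibroblast ratio. The naive CD45+ library also held 151 fibroblast-like cells, which escaped the sort, and in these Mgarp stood at 14.9 CPM (10.3 to 20.8), above all other libraries. Adm in the same 151 cells was 65.7 CPM (55.6 to 77.1). Those cells had a median of 15142 UMIs, and the CD45- naive cells 6626. The thinned shares of fibroblast-like cells with a Mgarp UMI were 0.0787% in naive CD45-, 1.32% in naive CD45+, 0.0988% in WT and 0.582% in Cd226-/-, near the level of 1 UMI, so no difference is read from them.

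Most fibroblast-like cells of naive and treated skin lay in different clusters. In naive CD45- skin, clusters c0 (led by Ndufa4l2 and Col1a1), c4 (Smpd3, Pi16) and c3 (Cthrc1) held 30.3%, 26.6% and 16.8% of the class. In WT, c8 (Ptx3, Chl1), c19 (Mrgprg, Cxcl13) and c12 (Il33, Cxcl14) held 36.0%, 24.1% and 15.4%, and in Cd226-/- they held 18.8%, 33.2% and 25.8%. Ndufa4l2 and Adm were not used to form the clusters, yet Ndufa4l2 is among the top 10 genes of c0 and Adm among those of c19, so differences over the whole class combine cells of different clusters.

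Within naive skin the targets already differed between fibroblast-like clusters. Ndufa4l2 was 1139 CPM in c0, 732 in c1, 633 in c2 and 409 in c3, but 68.9 in c10, 40.3 in c5 and 10.2 in c4. Clusters c1, c6, c10 and c14 (Apod, Angptl7) held at least 50 cells of both naive and WT skin, and c1, c6 and c14 of Cd226-/- as well. In c6 (Cilp, Ctgf), Adm was 62.6 CPM in naive, 624 in WT and 989 in Cd226-/- (9.97-fold, 7.39 to 13.8, and 15.8-fold, 11.8 to 21.8, higher), and Ndufa4l2 was 99.6, 6.78 and 16.2 CPM (14.7-fold, 8.83 to 25.49, and 6.14-fold, 4.45 to 8.42, lower). Ndufa4l2 was thus lower than naive in both treated libraries of c6, but lowest in WT, unlike over the class. In c1 (Grem1, Tnc), Adm was 21.5, 38.7 and 23.7 CPM, and in c10 (Inmt, Gdf10) 50.4 in naive and 67.8 in WT, far smaller differences.

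Ldha was higher in treated skin in each cluster that could be compared. It measured 154, 354 and 670 CPM in c6 (naive, WT, Cd226-/-), 163, 448 and 546 in c1, 150 and 220 in c10 (naive and WT) and 128, 319 and 340 in c14. P4ha2 was lower in c1 (193, 71.9 and 68.8 CPM), c6 (175, 69.5 and 61.3 CPM) and c10 (113 and 70.9 CPM). Ndufa4l2 was lower in c1 (732, 476 and 262 CPM) but not in c10, at 68.9 and 75.9 CPM, where the interval of the ratio included equality. Vegfa was higher in WT than naive over the class but lower in c1 (72.7 and 28.4 CPM) and in c10 (177 and 123 CPM). The class-wide direction of Vegfa therefore did not hold in those clusters.

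As a list, the enzymes had median log2 ratios against naive of 0.37 (WT) and 0.78 (Cd226-/-) in c6, 0.68 (WT) in c1 and 0.14 (WT) in c10, and the targets -0.24, -0.01, -0.13 and -0.10. The order of the lists, enzymes above targets, was the same in these clusters as over the class, while c10 gave an enzyme median well below the 0.71 of the class. Of the Egln3 UMIs of WT fibroblast-like cells 140 lay in c1 and 4 in other clusters, and in c1 it was 10.8 CPM in naive, 35.4 in WT and 22.5 in Cd226-/-. Cluster c1 held 342 WT and 55 Cd226-/- cells.

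**Figure D3:**
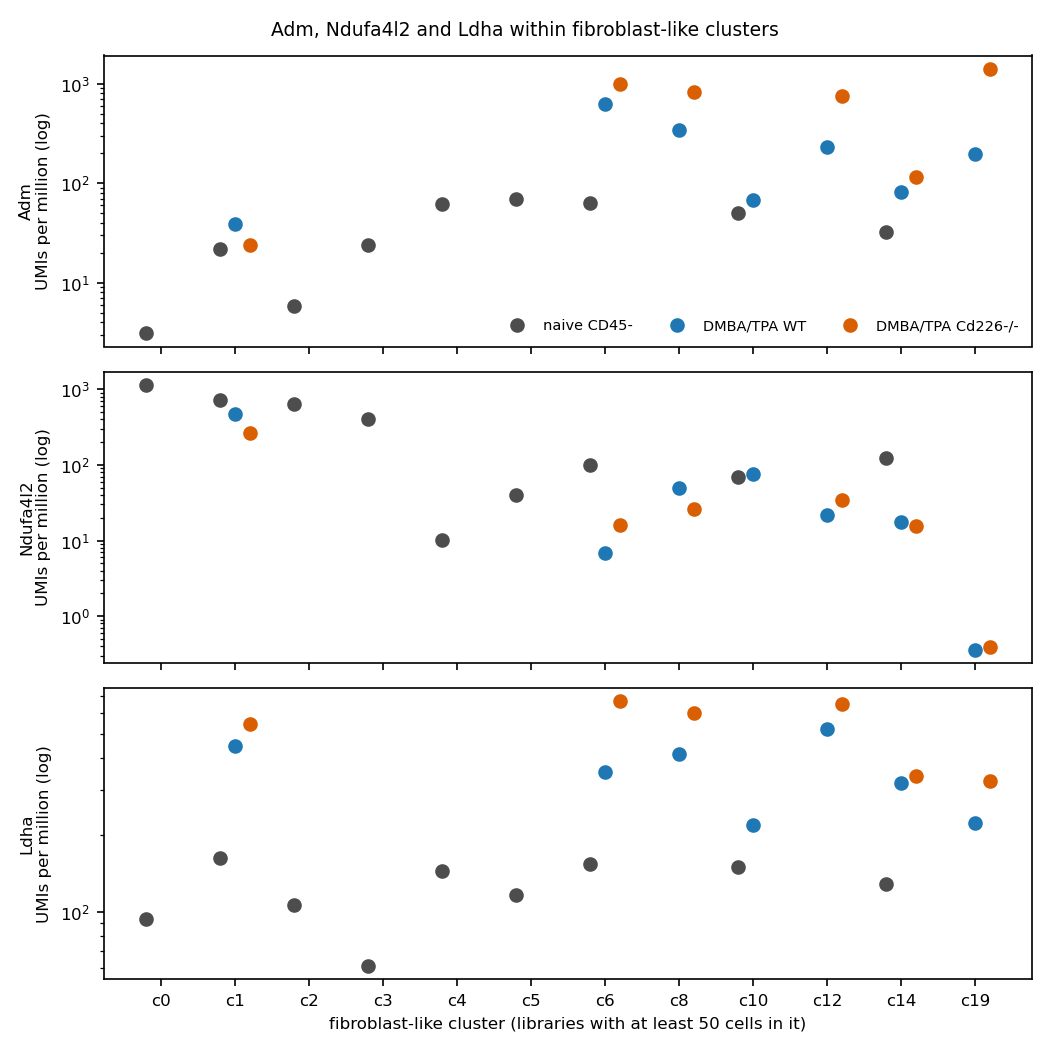
Adm, Ndufa4l2 and Ldha in the fibroblast-like clusters with at least 50 cells in a library, in CPM on a log axis, by library. Adm reaches 1412 CPM in c19 of Cd226-/-, Ndufa4l2 1139 CPM in c0 of naive skin, and Ldha is higher in the treated libraries of c1, c6 and c10.

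Other genes of the pathways in fibroblast-like cells were also split. Of 27 other glycolysis and carbon-branch genes tested, 6 were past 1.5-fold higher and 2 lower in WT, and 9 and 1 in Cd226-/-; of 27 other hypoxia genes 6 and 5 in WT, and 7 and 8 in Cd226-/-. Of all genes 19.7% were past 1.5-fold higher and 12.2% lower in WT, and 23.6% and 14.9% in Cd226-/-, and no difference from all genes is read from these counts. Epas1, which encodes the Hif2 alpha subunit, was 1.96 CPM in naive, 35.5 in WT and 53.5 in Cd226-/- (18.1-fold, 15.2 to 21.7, and 27.3-fold, 23.0 to 32.7, higher). Angptl4, a secreted inhibitor of lipoprotein lipase, was 90.5 CPM in naive, 394 in WT (4.36-fold higher) and 342 in Cd226-/-, and Plod2, a collagen lysyl hydroxylase, 2.59, 5.89 and 12.8 CPM (4.94-fold higher than naive in Cd226-/-). Lower after treatment were the repressor Bhlhe40 (198, 85.5 and 70.2 CPM), Vldlr, a lipoprotein receptor (49.3, 23.8 and 19.8 CPM), and Stc1, a secreted glycoprotein, in Cd226-/- (10.7, 10.3 and 3.46 CPM). The 19 dissociation stress genes summed to 22937 CPM in naive, 20188 in WT and 17313 in Cd226-/-, opposite in order to the enzymes, and the cell cycle genes with enough UMIs had median log2 ratios of 0.85 and 1.25; the part of either in the result was not tested. Median depth also ascended from naive through WT to Cd226-/-.

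Lymphocyte-like cells (262 naive, 398 WT and 636 Cd226-/-) had the greatest median ratio of the hypoxia targets. All 6 targets with enough UMIs in WT were higher than naive, 4 of them past 1.5-fold, and all 7 in Cd226-/-, 5 past 1.5-fold; of all genes 11.7% were past 1.5-fold higher in WT and 15.6% in Cd226-/-. Hif1a was 101 CPM in naive, 500 in WT (4.96-fold, 4.20 to 5.89) and 553 in Cd226-/- (5.48-fold, 4.67 to 6.47). Hilpda was 111, 424 and 534 CPM (3.84-fold, 3.26 to 4.53, and 4.83-fold, 4.14 to 5.66), and Ndrg1 29.2, 94.7 and 141 CPM (3.25-fold, 2.34 to 4.57, and 4.85-fold, 3.59 to 6.68). Each of these 3 was lowest in naive and highest in Cd226-/-. Bnip3 (12.8, 37.0 and 44.5 CPM), Vegfa (5.47, 24.1 and 14.6 CPM) and Egln3 (8.50, 17.4 and 25.7 CPM) were higher than naive in both, from fewer UMIs; Egln1 and P4ha1 were within 1.5-fold.

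Among the enzymes of lymphocyte-like cells, 12 of 13 in WT and 13 of 13 in Cd226-/- were higher than naive, and 9 in each were past 1.5-fold higher. Tpi1 was 149 CPM in naive, 370 in WT (2.47-fold, 2.13 to 2.88) and 379 in Cd226-/-, Pgk1 245, 587 and 572 CPM, and Pkm 414, 835 and 940 CPM. Gapdh was 1133, 2133 and 2335 CPM and Ldha 481, 840 and 833 CPM, so the treated libraries stood close together and apart from naive. Hk2 was the exception, at 98.4 CPM in naive, 49.9 in WT (1.97-fold lower, 1.51 to 2.59; 15.8% of all genes were past 1.5-fold lower) and 114 in Cd226-/-. The transporters Slc2a1 (18.2, 42.6 and 48.3 CPM) and Slc16a3 (12.8, 26.9 and 45.9 CPM; 3.59-fold over naive in Cd226-/-) were higher in both. In cluster c28 alone (led by Il22 and Il17a), which held 86.6%, 84.2% and 73.6% of the class, the medians against naive were 0.65 for enzymes and 1.56 for targets in WT and 1.04 and 1.87 in Cd226-/-.

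Markers of other cells moved with these lymphocyte values. The summed neutrophil markers in the lymphocyte-like class were 48.6 CPM in naive, 276 in WT and 1154 in Cd226-/-, and the summed monocyte markers 648, 1498 and 2677 CPM; the part of such RNA in the differences was not tested. Stress genes summed to 16587, 16173 and 18221 CPM. The cell cycle genes ran lower, with median log2 ratios of -0.93 in WT and -0.58 in Cd226-/-. Of the other hypoxia genes, Bhlhe40 was 153 CPM in naive, 449 in WT (2.93-fold higher) and 373 in Cd226-/-, a direction opposite to that in fibroblast-like cells, and Mxi1, a repressor of Myc targets, was 20.05 CPM in naive and 59.4 in Cd226-/-. Rora, a nuclear receptor, was 323 CPM in naive and 598 in WT. Of the other glycolysis genes 0 of 10 were past 1.5-fold higher and 2 lower in WT, among them Bpgm (51.6 and 19.6 CPM).

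Macrophage-like cells (1447, 321 and 373) had their greatest ratios to naive in Slc2a1, Slc16a3 and Hif1a. Slc16a3 in WT came within 1.5-fold when doublets were kept and all cells clustered anew. Slc2a1, the main glucose importer, was 5.93 CPM in naive, 24.9 in WT (4.20-fold, 2.89 to 6.03) and 28.4 in Cd226-/- (4.78-fold, 3.49 to 6.54). Slc16a3, the lactate exporter, was 9.93, 28.0 and 41.1 CPM (2.82-fold, 2.03 to 3.88, and 4.14-fold, 3.22 to 5.31). Hif1a was 68.2, 203 and 273 CPM (2.97-fold, 2.64 to 3.34, and 4.00-fold, 3.64 to 4.40). In all 3 genes naive was lowest and Cd226-/- highest. With doublets kept, the log2 ratio of Slc16a3 went from 1.497 to 0.519 in WT, within 1.5-fold, and from 2.05 to 0.968 in Cd226-/-, and that of Slc2a1 from 2.07 to 1.46 and from 2.26 to 1.52. With members kept among the variable genes Slc16a3 was 1.33 in Cd226-/-.

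Of 13 enzymes in macrophage-like cells, 11 were higher than naive in WT (4 past 1.5-fold, where 8.42% of all genes were) and 12 in Cd226-/- (5 past 1.5-fold, where 10.5% were). Pkm was 293 CPM in naive, 619 in WT (2.11-fold, 1.98 to 2.25) and 836 in Cd226-/- (2.85-fold, 2.71 to 3.00), and Pgk1 104, 200 and 253 CPM. The 19 stress genes summed to 18396 CPM in naive, 22480 in WT and 19013 in Cd226-/- macrophage-like cells; in WT 17 of the 19 were higher than naive and 5 past 1.5-fold, with a median log2 ratio of 0.39 against 0.30 for the enzymes, and their part in the result was not tested. Hk2 was 144 CPM in naive, 88.8 in WT (1.63-fold lower, where 15.1% of all genes were past 1.5-fold lower) and 155 in Cd226-/-. Among the targets Ndrg1 was 40.1, 97.1 and 136 CPM (2.42-fold and 3.39-fold higher) and Vegfa 12.2, 27.0 and 29.1 CPM, and Car9, detected here at 4.47, 3.64 and 2.84 CPM, was past 1.5-fold lower in Cd226-/- with an interval that included equality; 17.1% of all genes were past it. Ddit4, a stress-induced inhibitor of growth signalling, was 4.93, 12.98 and 25.2 CPM, and Higd1a, a mitochondrial protein of the hypoxia response, 45.0, 90.4 and 99.6 CPM. Cluster c15 (Ccl8, Folr2) gave medians of 0.13 for enzymes and -0.16 for targets in WT and 0.69 and 0.35 in Cd226-/-, and c21 (Trem2, C1q genes) 0.22 and 0.59, and 0.47 and 0.53; c15 held 50.03% of the naive class, 32.7% in WT and 41.6% in Cd226-/-.

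Monocyte-like cells (515, 467 and 1126) had small enzyme ratios, in 1 direction in WT only. In WT 13 of 13 enzymes were higher with 0 past 1.5-fold (7.64% of all genes were). In Cd226-/- 10 of 13 were higher with 1 past it (8.42% of all genes were). That 1 gene was Pkm, at 884 CPM in naive, 1291 in WT and 1357 in Cd226-/-. The targets and transporters stood further apart. Ndrg1 was 85.3, 267 and 191 CPM (3.13-fold, 2.798 to 3.50, and 2.24-fold, 2.03 to 2.47), Slc2a1 38.2, 107 and 94.3 CPM (2.79-fold, 2.35 to 3.31, and 2.47-fold, 2.13 to 2.87), and Hif1a 248, 439 and 537 CPM (1.77-fold, 1.64 to 1.90, and 2.17-fold, 2.04 to 2.30). Vegfa was 64.6, 113 and 95.1 CPM. These ratios were smaller with doublets kept, a setting that also clustered and named all cells anew. The part of the doublets themselves was not tested. The log2 ratios in WT were then 1.00 for Ndrg1 (1.64 as given), 0.546 for Slc2a1 (1.48), 0.186 for Hif1a (0.823) and 0.183 for Vegfa (0.805). The last 3 were within 1.5-fold. In Cd226-/- Slc2a1 was then 0.454 (1.30) and Hif1a 0.576 (1.12), both within 1.5-fold. Ndrg1 of Cd226-/-, 2.24-fold as given, was then at a log2 ratio of 0.593, only just past 1.5-fold. The class then consisted of 2 clusters with 238 and 6 naive cells, the second led by Ptx3 and Adm. With members kept among the variable genes, Hif1a and Vegfa of WT were also within 1.5-fold, at 0.469 and 0.396.

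Naive monocyte-like cells were mostly of another cluster than treated ones: 65.8% lay in c22, led by the interferon-response genes Ifi44 and Cxcl10, while 97.6% of WT and 98.4% of Cd226-/- cells lay in c27 (Chil3, F10). Within c27 the levels in naive, WT and Cd226-/- were 103, 261 and 191 CPM for Ndrg1, 48.1, 106 and 94.9 CPM for Slc2a1 and 315, 444 and 541 CPM for Hif1a. The 3 genes were thus still higher than naive in c27, Hif1a by less (1.41-fold, 1.28 to 1.55, and 1.72-fold, 1.58 to 1.86). Hilpda was lower there, at 265, 227 and 199 CPM. Medians within c27 were 0.29 for enzymes and 0.29 for targets in WT and 0.25 and 0.26 in Cd226-/-. Mxi1 (45.6, 86.4 and 113 CPM) and Ddit4 (12.8, 45.9 and 31.7 CPM) of the other hypoxia genes were higher over the class, and the lipid droplet gene Plin2 was lower (802, 472 and 366 CPM).

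Neutrophil-like cells (526, 156 and 266) combined higher Egln3, Hilpda and glucose transporters with lower Pfkfb4. Hif1a and Vegfa were past 1.5-fold lower in WT only. Egln3, the oxygen sensor that marks Hif proteins, was 5.43 CPM in naive, 70.0 in WT (12.9-fold, 6.24 to 29.96) and 66.0 in Cd226-/- (12.1-fold, 6.03 to 27.7). Thinned to 1000 UMIs, 0.380%, 7.69% and 4.51% of neutrophil-like cells had an Egln3 UMI (unthinned 1.71%, 18.6% and 16.2%, at median depths of 2866, 3221.5 and 2977 UMIs), against thinned shares of 0.00% (0 of 1447 cells, which allows up to 0.207%), 0.00% (0 of 321, up to 0.935%) and 0.268% in macrophage-like cells. Hilpda was 153, 752 and 537 CPM (4.91-fold, 4.21 to 5.73, and 3.51-fold, 3.02 to 4.08). Both genes were far lower in naive than in either treated library.

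The transporters Slc2a1 (135, 317 and 318 CPM; 2.35-fold, 1.94 to 2.86, and 2.36-fold, 1.99 to 2.81) and Slc2a3 (146, 303 and 325 CPM; 2.22-fold over naive in Cd226-/-) were higher in both treated libraries of neutrophil-like cells, and Slc16a3 was lower (1767, 1355 and 1578 CPM). Of 12 enzymes, 9 were higher than naive in WT (6 past 1.5-fold, where 11.9% of all genes were) and 10 in Cd226-/- (5 past 1.5-fold, where 8.82% were), with Tpi1 at 44.7, 128 and 91.2 CPM. Pfkfb3 was 84.5, 186 and 136 CPM, while Pfkfb4 was 71.2, 33.5 and 23.3 CPM (2.13-fold, 1.34 to 3.52, and 3.06-fold, 1.96 to 4.96, lower). Hif1a was 359, 225 and 263 CPM (1.59-fold, 1.33 to 1.92, and 1.37-fold, 1.18 to 1.58, lower), and Vegfa 74.8, 32.0 and 54.3 CPM. In Cd226-/- Hif1a and Vegfa were thus within 1.5-fold of naive, while Ndrg1 was past it, at a log2 ratio of -1.21. Lower ratios were common in this class: 35.1% of all genes in WT and 33.8% in Cd226-/- were past 1.5-fold lower. The all-gene median log2 ratio was -0.33 in both, so the smaller falls, as of Slc16a3, are not read as particular to a gene.

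Of 9 other glycolysis and carbon-branch genes in neutrophil-like cells, 0 were higher and 7 were past 1.5-fold lower in WT, with a median log2 ratio of -0.86 against -0.33 for all genes. In Cd226-/- 4 of 12 were past it, near the share of all genes, and their median was -0.33, as for all genes. Taldo1, an enzyme of the pentose phosphate branch, was 1071 CPM in naive, 365 in WT (2.93-fold lower, 2.56 to 3.37) and 455 in Cd226-/-, and the transporter Slc2a6 194, 62.4 and 53.3 CPM. Ero1l, an oxidase of protein folding, was 23.5 CPM in naive and 88.3 in WT. Higher in Cd226-/- were Adpgk, an ADP-dependent glucokinase (12.7 CPM in naive, 38.8 in Cd226-/-), and Pgm1, a phosphoglucomutase (13.3 and 36.9 CPM). The stress genes summed to 14945 CPM in naive, 27582 in WT and 25411 in Cd226-/- neutrophil-like cells, and their part in the result was not tested.

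**Figure D4:**
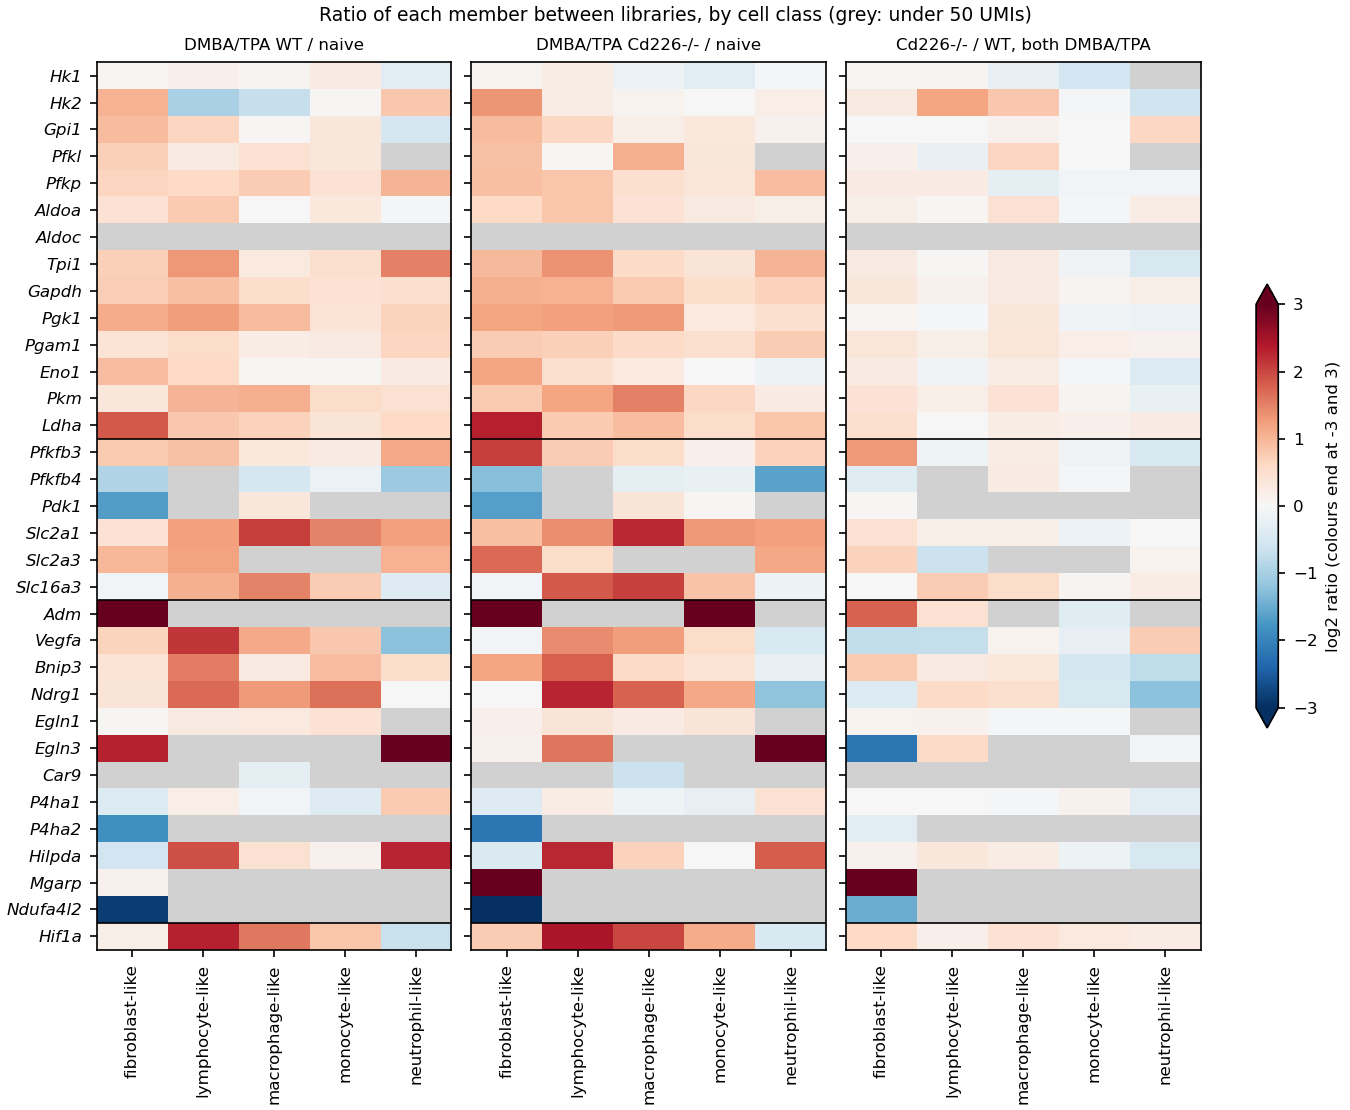
Log2 CPM ratio of each member (rows, by role) in 5 classes for WT against naive, Cd226-/- against naive and Cd226-/- against WT, as a colour scale, with grey for members under 50 UMIs over both libraries. The enzyme rows are mostly higher than naive, and Hif1a is higher in lymphocyte-, macrophage- and monocyte-like cells but lower in neutrophil-like cells.

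Dendritic-like cells could be compared between naive (287) and Cd226-/- (198) only, since WT held 82. Of 14 enzymes 11 were higher, 2 past 1.5-fold higher (6.22% of all genes) and 1 lower (14% of all genes). Ldha was 396 CPM in naive and 606 in Cd226-/- (1.53-fold, 1.42 to 1.65), with 539 in the 82 WT cells. The enzyme that was lower was Aldoc, the brain-type aldolase, at 16.2 CPM in naive and 1.68 in Cd226-/- (9.66-fold lower, 3.17 to 48.0), and 12.7 CPM in WT. P4ha1 (37.2 and 18.5 CPM) and Pfkfb3 (54.0 and 34.2 CPM) were lower in Cd226-/- than in naive, while Pgam1 (178 and 275 CPM), Slc2a1 (17.9 and 34.7 CPM) and Hif1a (59.2 and 98.0 CPM) were higher. Some of these came within 1.5-fold under an alternative: Hif1a at log2 ratios of 0.314 (members kept among the variable genes), 0.459 (resolution 2) and 0.518 (mean of per-cell CPM), and Ldha at 0.510 and Pfkfb3 at -0.269 with doublets kept. Ddit4 was 12.7 CPM in naive and 28.6 in Cd226-/-, Adpgk 27.9 and 50.4, and Plin2 lower at 214 and 101.

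Langerhans-or-dendritic-like cells, a cluster led by Ccl22, Ccr7 and Cd207, held 31 naive, 254 WT and 329 Cd226-/- cells, so only the treated libraries were compared. Ndrg1 was among the higher members of this cluster, at 56.4 CPM in the 31 naive cells, 440 in WT and 564 in Cd226-/-. Pfkfb3 was 256 CPM in the naive cells, 62.4 in WT and 70.7 in Cd226-/-, and Aldoa 380.5 (naive), 890 and 903 CPM. The naive values rest on few cells and are given as levels only.

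Endothelial-like cells (145 naive and 177 WT; 57 Cd226-/- cells were too few to compare) had higher enzymes, while the targets were split, with 3 of 6 higher in WT. Their median of -0.30 was 0.18 with the mean of per-cell CPM, 0.27 with members kept among the variable genes and 0.0463 at 5% mitochondrial UMIs. Of 12 enzymes 9 were higher in WT, 4 past 1.5-fold, where 11.7% of all genes were. Pkm was 207 CPM in naive, 423 in WT (2.04-fold, 1.64 to 2.56) and 633 in the 57 Cd226-/- cells, Pgk1 71.8, 168 and 191 CPM, and Gapdh 669, 1109 and 1469 CPM. Of 6 targets 1 was past 1.5-fold higher, Hilpda (16.4, 48.3 and 26.4 CPM), and 3 were past 1.5-fold lower, where 11.2% of all genes were: Ndufa4l2 (80.0, 13.7 and 14.7 CPM; 5.85-fold in WT, 3.15 to 11.4), Egln1 (146, 91.2 and 106 CPM) and P4ha2 (49.2, 26.4 and 17.6 CPM). Taking the mean over cells in place of the sum turned the log2 ratio of P4ha2 from -0.896 to 0.473 and gave -0.551 for Egln1, within 1.5-fold, -1.76 for Ndufa4l2 (-2.55 as given) and 2.29 for Hilpda (1.56). With doublets kept P4ha2 was -1.80, Ndufa4l2 -3.78 and Egln1 -0.478, and with members kept among the variable genes P4ha2 was -0.239. The summed fibroblast markers of naive endothelial-like cells were 11.6% of their level in naive fibroblast-like cells, and Ndufa4l2 and P4ha2 were 15.3% and 21.8% of theirs; the part of fibroblast RNA in these naive levels was not tested. Stress genes summed to 23663 CPM in naive and 14476 in WT. Stc1 (6.15 and 78.4 CPM; 12.7-fold, 4.22 to 63.0) and Angptl4 (152 and 358 CPM) were higher in WT and Bhlhe40 lower (109 and 42.9 CPM).

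Cd226-/- against WT gave enzyme medians between -0.15 and 0.28 over 6 classes, and the greatest ratios of single members, those of Mgarp and Egln3, were in fibroblast-like cells. All 13 enzymes there were higher in Cd226-/-, Hk1 and Gpi1 so slightly that trimmed-mean scaling turned them, with 0 past 1.5-fold, a median log2 ratio of 0.26 and an all-gene median of 0.02; 6.03% of all genes were past 1.5-fold higher and 6.49% lower. Among 11 targets 3 were past it in each direction. Adm was 3.41-fold higher in Cd226-/- (3.34 to 3.48), Mgarp 12.2-fold (8.09 to 19.3) and Bnip3 1.71-fold (1.60 to 1.83), at the levels given above. Ndufa4l2 was 2.79-fold lower (2.60 to 3.01), Egln3 4.53-fold (2.97 to 7.17) and Vegfa 1.68-fold (1.58 to 1.78). Pfkfb3 was 2.44-fold higher (2.01 to 2.96) and Hif1a 1.52-fold (1.45 to 1.58). Of the 144 Egln3 UMIs of WT 140 lay in c1, which held 8.45% of WT and 2.00% of Cd226-/- fibroblast-like cells. Within c1 the 2 Egln3 levels given above lay closer together than over the class. Mgarp was 14.9 CPM in the fibroblast-like cells of naive CD45+, above its level in Cd226-/-, and no difference was read from its thinned shares.

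Cluster by cluster, Adm was higher in Cd226-/- than in WT in the 4 main clusters of treated fibroblast-like cells: 343 CPM in WT and 831 in Cd226-/- in c8 (2.42-fold, 2.35 to 2.50), 232 and 749 in c12 (3.23-fold, 3.04 to 3.44), 197 and 1412 in c19 (7.15-fold, 6.79 to 7.53), and 624 and 989 in c6 (1.59-fold, 1.504 to 1.67). It was lower in c1, at 38.7 and 23.7 CPM. Vegfa was lower in Cd226-/- in c8 (83.2 and 44.4 CPM), c12 (132 and 93.2 CPM) and c19 (61.1 and 25.1 CPM). Ndufa4l2 did not keep its direction: it was lower in c8 (49.8 and 26.1 CPM) and c1 (476 and 262 CPM) but higher in c12 (21.8 and 33.9 CPM; 1.55-fold, 1.25 to 1.94) and c6 (6.78 and 16.2 CPM; 2.39-fold, 1.47 to 4.09). Of the 250 Mgarp UMIs of Cd226-/- fibroblast-like cells 173 lay in c19, with levels of 1.203 CPM in WT and 16.7 in Cd226-/-. Enzyme medians were 0.34 in c8, 0.25 in c12, 0.07 in c19 and 0.47 in c6.

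Of the other pathway genes of fibroblast-like cells, Ankrd37, a small hypoxia-induced protein, was 0.841 CPM in WT and 2.65 in Cd226-/- (3.15-fold, 2.15 to 4.71), and Plod2 was 2.18-fold higher (1.87 to 2.54). Stc1 was 2.98-fold lower (2.44 to 3.65), and Mxi1 was 24.9 and 13.9 CPM (1.79-fold lower). Of the 27 other hypoxia genes 10 were higher and 17 lower in Cd226-/- than in WT. Their median log2 ratio was -0.21 (-0.24 with trimmed-mean scaling), against 0.02 for all genes. Past 1.5-fold were 3 higher and 4 lower of the 27, where 6.03% and 6.49% of all genes were. The 11 targets were split, with 6 higher and 5 lower and a median of 0.02 (-0.01 with trimmed-mean scaling).

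In macrophage-like cells 11 of 13 enzymes were higher in Cd226-/- than in WT, 2 of them past 1.5-fold (4.96% of all genes), with a median of 0.28 against 0.03 for all genes. Those 2 were Hk2 (88.8 and 155 CPM; 1.75-fold, 1.46 to 2.10) and Pfkl (28.6 and 44.3 CPM; 1.55-fold, 1.12 to 2.17; within 1.5-fold with doublets kept, at a log2 ratio of 0.473). The median was 0.68 in cluster c15 and 0.21 in c21. Ddit4 (12.98 and 25.2 CPM) and the lactate and pyruvate transporter Slc16a1 (1.88-fold, 1.11 to 3.31) were higher and Angptl4 was lower (18.2 and 7.09 CPM). Summed neutrophil markers were 246 CPM in naive, 441 in WT and 575 in Cd226-/- macrophage-like cells.

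Over the class, lymphocyte-like cells of the treated libraries lay close together in the enzymes, with a median of 0.05 (-0.02 with trimmed-mean scaling). Past 1.5-fold higher was 1 of 13 (10.7% of all genes). That 1 was Hk2, at 49.9 CPM in WT and 114 in Cd226-/- (2.29-fold, 1.80 to 2.92). In cluster c28 the enzyme median was 0.28, with 11 of 13 higher, and in c31 it was -0.04, with 5 of 11 higher. Cluster c31 held 15.8% of the class in WT and 26.4% in Cd226-/-. Slc16a3 was 1.71-fold higher (1.22 to 2.43), while Slc2a3 (43.1 and 27.8 CPM; 1.55-fold, 1.12 to 2.15) and Vegfa (24.1 and 14.6 CPM; 1.65-fold, 1.05 to 2.59) were lower; 3.35% of all genes were past 1.5-fold lower. With members kept among the variable genes the log2 ratios of Slc16a3 and Vegfa were 0.294 and -0.0366, and with the mean of per-cell CPM that of Slc2a3 was -0.408, all within 1.5-fold. Pygl, glycogen phosphorylase (9.52 and 25.4 CPM), and Bpgm (19.6 and 40.6 CPM) were higher. Hk2 was thus the enzyme past 1.5-fold higher in both macrophage-like and lymphocyte-like cells. In neutrophil-like cells it was past 1.5-fold lower, at 44.2 CPM in WT and 29.1 in Cd226-/-, with an interval that included equality. Of all genes in neutrophil-like cells 9.95% were past 1.5-fold lower.

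In monocyte-like cells the enzymes had a median of -0.04, with 4 of 13 higher and 0 past 1.5-fold in either direction, where 4.26% and 5.35% of all genes were past it. Of the members with enough UMIs, Hk1 (27.7 and 18.6 CPM; 1.49-fold lower, 1.13 to 1.96) and Bnip3 (40.3 and 27.8 CPM; 1.45-fold lower, 1.15 to 1.81) were nearest to it, and Ndrg1 was 1.40-fold lower (1.28 to 1.52). Among other genes Lox, a collagen cross-linking enzyme (15.2 and 3.89 CPM), and Ldhb, the second lactate dehydrogenase subunit (17.2 and 9.59 CPM), were lower in Cd226-/-. In neutrophil-like cells the enzyme median was -0.09 (0.06 with trimmed-mean scaling), and the targets had a median of -0.41 with 1 past 1.5-fold higher (5.84% of all genes) and 2 lower (9.95%). Ndrg1 was 50.2 and 21.3 CPM (2.35-fold lower, 1.33 to 4.24), Bnip3 56.3 and 33.0 CPM (1.71-fold lower, 1.04 to 2.81) and Vegfa 32.0 and 54.3 CPM (1.70-fold higher, 1.01 to 2.95; a log2 ratio of 0.495 with the mean of per-cell CPM, within 1.5-fold). Gpi1 was higher in Cd226-/-, at 73.1 and 113 CPM (1.54-fold, 1.09 to 2.20), and Ero1l lower, at 88.3 and 52.4 CPM. In Langerhans-or-dendritic-like cells Bnip3 (63.1 and 37.1 CPM; 1.70-fold, 1.35 to 2.15) and Hk1 (19.7 and 11.03 CPM; 1.79-fold, 1.16 to 2.77) were lower, as were Lox (15.1 and 3.395 CPM) and Angptl4 (13.6 and 3.68 CPM); 8.83% of all genes were past 1.5-fold lower there and 2.31% higher.

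Free RNA in droplets bears on Adm, since it was abundant in treated fibroblast-like cells. In monocyte-like cells Adm was 0.162 CPM in naive (1 UMI), 10.2 in WT and 7.89 in Cd226-/- (48.8-fold over naive, 8.45 to 1960; a log2 ratio of 5.61, or 3.75 without the richest cell). As a percentage of the fibroblast-like level of the same library, Adm in Cd226-/- was 0.82% in monocyte-like, 1.07% in macrophage-like, 1.21% in neutrophil-like and 1.52% in lymphocyte-like cells, where the summed fibroblast markers were 0.92%, 1.05%, 1.25% and 1.30%. In WT Adm was 3.63%, 1.84%, 3.24% and 3.78%, and the fibroblast markers 1.95%, 2.00%, 2.64% and 2.35%. Adm in these immune classes thus stood near the share of fibroblast markers in Cd226-/-, and in WT near it in macrophage-like cells and above it in the others. No difference between conditions in Adm of immune cells is read from these values. Lymphatic-endothelial-like cells differed: in WT their Adm was 201% of the fibroblast-like level, where fibroblast markers were 0.93%.

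**Figure D5:**
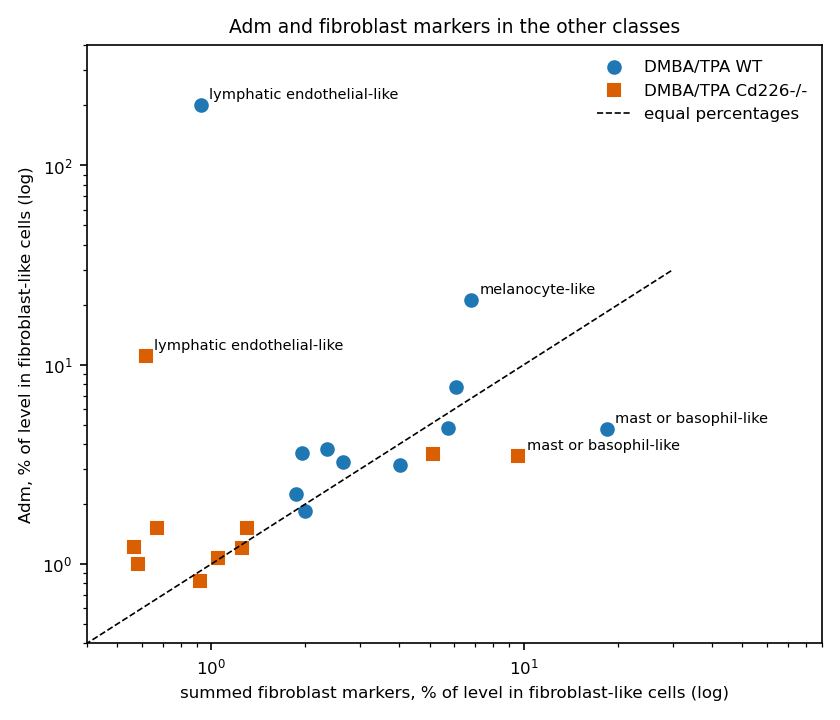
Adm in the other classes of the WT and Cd226-/- libraries as a percentage of its level in fibroblast-like cells of the same library (vertical), against the summed fibroblast markers as the same percentage (horizontal), both on log axes. Macrophage-, monocyte-, lymphocyte- and neutrophil-like cells of Cd226-/- lie near equality, and lymphatic-endothelial-like cells lie far above it, at 201% in WT and 11.1% in Cd226-/-.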

How the data were processed

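Single-cell 3' libraries (10x Genomics v3.1 chemistry) of 4 mouse skin samples were analysed, 1 library in each group. The authors deposited raw UMI counts for each gene and barcode; the submitters' processing notes name Cell Ranger 3.1.0 and the mm10 build. Whether counting used the strand is not stated there, so reads of members with an overlapping gene on the opposite strand (among them Adm, Aldoa, Gapdh and Ndufa4l2) cannot be told apart from that gene's, and Gapdh, Pgk1, Pgam1, Ldha and Aldoa have processed pseudogenes named after them. Hif1a overlaps Gm49321 on its own strand. The symbol Aldoa stands under 2 identifiers; the one used, ENSMUSG00000030695, holds nearly all its UMIs, and the other at most 2 in a library.

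Kept cells had 500 or more genes, 1000 or more UMIs and no more than 10% mitochondrial UMIs. Doublets were removed with Scrublet through scanpy 1.11.5 (expected rate 0.06). In the naive CD45+ library the automatic threshold marked under 0.5% of cells, so the highest 5% of scores (178 cells) were removed there instead. After log transformation of counts scaled to 10000 a cell, 2000 variable genes without the members and the other listed pathway genes, 30 principal components and 15 neighbours gave Leiden clusters at resolution 1. Clusters were named from marker lists; the naming thresholds were revised after the clusters had been seen, and clusters that met none stayed unnamed (11.3% of immune and 10.2% of other cells in WT, 8.65% and 11.5% in Cd226-/-). The members and gene lists were chosen with earlier results of these data known. Comparisons within clusters, the shares of fibroblast RNA and the promoters shown were chosen after the values were seen.

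UMIs of a gene were summed over the cells of a class and divided by the class total (CPM). Levels carry exact Poisson intervals, ratios exact conditional binomial intervals and shares of cells exact (Clopper-Pearson) binomial intervals, all at 95% and for counting error only; a count of 0 was given the limit of 3 counts. Where an interval of a ratio includes equality, no interval is printed. The ratio intervals were tested on simulated data with independent Poisson counts, the model they assume. That test therefore does not cover UMIs spread unevenly over cells. Each member is named; in each comparison and class the members past 1.5-fold are given in full, up to 4 in each direction by the interval bound nearest to equality, and of the other pathway genes up to 2. Shares of cells were also taken after thinning each cell to 1000 UMIs. Promoter sequences are RefSeq's for GRCm38.p6. Alternatives tried were a limit of 5% mitochondrial UMIs, doublets kept, resolution 2, members kept among the variable genes, no minimum of UMIs, the mean of per-cell CPM, trimmed-mean scaling, leaving out the richest cell and, added after the data were seen, the best shared cluster alone. Calculations used scipy 1.17.1, numpy 2.4.6, igraph 0.11.9 and matplotlib 3.10.9 under Python 3.11.15.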

Additional observations from a re-analysis of the deposited data

Results flagged for a closer look

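In 8 cases a member stood past 1.5-fold higher in 1 class and past 1.5-fold lower in another under the same comparison, with both intervals leaving out equality. Slc2a3 and Bnip3 of Cd226-/- against naive and Hk2 between genotypes met the fold in both directions but not the limit on intervals. Each case came from 1 library a group, and the differences between classes were not tested. For WT against naive, Hif1a had log2 ratios of 2.31 in lymphocyte-like and -0.67 in neutrophil-like cells, 2.98 apart. Under that comparison Vegfa had 2.14 in lymphocyte-like and -1.23 in neutrophil-like cells (3.37 apart), and Hk2 1.04 in fibroblast-like and -0.98 in lymphocyte-like cells (2.02 apart). For Cd226-/- against naive, Ndrg1 had 2.28 in lymphocyte-like and -1.21 in neutrophil-like cells, 3.49 apart, and Pfkfb3 2.07 in fibroblast-like and -0.66 in dendritic-like cells, 2.73 apart. Between genotypes, Bnip3 had 0.78 in fibroblast-like and -0.77 in neutrophil-like cells (1.55 apart), Vegfa 0.76 in neutrophil-like and -0.75 in fibroblast-like cells (1.51 apart), and Slc2a3 0.70 in fibroblast-like and -0.63 in lymphocyte-like cells (1.33 apart).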

How the results depend on the processing

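Of 468 values of list medians and of enzyme minus target differences under 9 alternatives, 430 moved by no more than the counting error of the reported value (for a median, that of the middle genes) and 38 by more. Of the 468, 27 had the opposite sign to the reported value, for 18 of the 54 reported values; each of those 18 was itself within its counting error of 0. Of 616 values of single genes 548 moved by no more than counting error, 67 moved by more and 1 turned from a value beyond counting error; 27, for 16 of 88 reported ratios, came within 1.5-fold or changed direction. The cause of each move was not tested. No paired analysis was possible because each group has 1 library and replicate number 1 stands in all of them. For the same reason no replicate could be left out. Values are log2 ratios. The turned single gene was P4ha2 of endothelial-like cells, WT against naive, 0.47 with the mean of per-cell CPM. That mean also gave 0.18 for the endothelial targets (WT), -0.0733 for fibroblast targets between genotypes, and 0.84 and 0.97 for the fibroblast and lymphocyte enzymes of Cd226-/- against naive. With no minimum of UMIs, targets against naive were 1.21 (macrophage), 1.29 (monocyte) and 1.54 (neutrophil) in WT, and 1.01, 0.86 and 0.77 with 0.0505 in fibroblast-like cells in Cd226-/-; enzymes minus targets were -0.95, -0.92 and -0.94 in WT and -0.48 (macrophage) and -0.54 (monocyte) in Cd226-/-. Fibroblast targets between genotypes were then -0.15, and enzymes minus targets 0.41. In the best shared cluster alone, enzymes against naive were 0.14 (WT fibroblast), 0.78 (Cd226-/- fibroblast) and 1.04 (Cd226-/- lymphocyte), and between genotypes 0.0721 (fibroblast) and 0.28 (lymphocyte). WT monocyte targets were 0.29 there, and enzymes minus targets -0.37 (WT macrophage), 0.79 (Cd226-/- fibroblast against naive) and 0.0408 (fibroblast between genotypes). Among the changes of sign were the fibroblast targets of WT against naive (-0.0865 with trimmed-mean scaling, -0.0979 in the best shared cluster), the endothelial targets of WT, and the fibroblast targets of Cd226-/- against naive and against WT with no minimum of UMIs. Trimmed-mean scaling gave fibroblast enzymes of 0.50 (WT) and 0.73 (Cd226-/-) and Cd226-/- targets of -0.23; those targets were -0.0864 without the richest cell and -0.16 at 5% mitochondrial UMIs, where enzymes minus targets were 1.09. Members kept among the variable genes gave WT endothelial targets of 0.27 and enzymes minus targets of 0.10, WT monocyte targets of 0.28 and Cd226-/- lymphocyte enzymes of 0.66. With doublets kept, Cd226-/- macrophage enzymes were 0.45. Resolution 2 moved none of the list values.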

Other observations

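Classes too small for a comparison give levels only. The 23 skeletal-muscle-like cells of naive skin held Aldoa at 12309 CPM, Gapdh at 11969 and Ldha at 1828, with Hk1 and Pfkp at 0 UMIs. In keratinocyte-like cells (61 naive, 213 WT and 24 Cd226-/-) Egln3 stood at 12.3, 38.0 and 107 CPM, Ldha at 236, 497 and 600 CPM and Hk1 at 36.9, 7.72 and 6.41 CPM. Of the 50 Egln3 UMIs in the 24 Cd226-/- cells 44.0% came from 1 cell. Ndufa4l2 was 261 CPM in naive keratinocyte-like cells and 1.78 in WT, and the summed fibroblast markers of those naive cells were 23.6% of their fibroblast-like level.

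Lymphatic-endothelial-like cells (56 naive, 81 WT and 40 Cd226-/-) held Adm at 469 CPM (369 to 587), 568 CPM (495 to 648) and 107 CPM (67.5 to 160), an order unlike that of fibroblast-like cells, and Ndrg1 at 462, 774 and 866 CPM. Of the Adm UMIs in Cd226-/- 39.1% came from 1 cell. Gapdh was 519, 1490 and 1890 CPM in this class. Mast-or-basophil-like cells (21 WT and 51 Cd226-/-) held Ndrg1 at 633 and 518 CPM and Ldha at 646 and 887 CPM. The 83 melanocyte-like cells of WT held Hk2 at 125 CPM and Pgk1 at 395 CPM.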
